A study of Mus musculus with 12 samples.

Results

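The genes described here are those of the transforming growth factor β (TGF-β) and bone morphogenetic protein (BMP) pathway, chosen by symbol: the BMP and GDF ligands, the TGF-β and activin genes, their receptors, the SMAD proteins, the latent TGF-β binding proteins, Grem1 and other secreted binding proteins such as Nog, Fst, Fstl1, Fstl3 and Chrdl1, and the membrane pseudoreceptor Bambi. Of 18255 genes listed over all libraries, 57 matched. They were 3 TGF-β ligands, 4 activin and inhibin subunits, 15 BMP and GDF ligands, 7 ligand inhibitors and binding proteins, 4 latent binding proteins, 6 type I receptors, 4 type II receptors, 3 co-receptors or pseudoreceptors, 5 receptor SMADs, 1 common SMAD, 2 inhibitory SMADs and 3 others. The others match by name only: Bmp1 encodes a procollagen protease, Bmp2k a kinase named for its induction by a BMP, and Tgfbrap1 a protein named for binding TGF-β receptors.

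Ligands of this family are secreted dimers that bring type II and type I receptor kinases together. TGF-β and activin receptors phosphorylate SMAD2 and SMAD3, BMP receptors phosphorylate SMAD1, SMAD5 and SMAD9, and both kinds enter the nucleus with SMAD4, while SMAD6 and SMAD7 hold the pathway back and proteins such as noggin, gremlin 1, chordin-like 1 and follistatin trap ligands outside the cell. In fat tissue TGF-β and activin are known to hold preadipocytes back from becoming adipocytes, and BMPs are known to commit precursor cells to the fat lineage.

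RNA was sequenced from 3T3-L1, an established mouse preadipocyte line that resembles fibroblasts until induced. The 4 groups of 3 libraries were LIGHT-Diff (cells overexpressing Tnfsf14, which encodes the cytokine LIGHT, after differentiation), NC-Diff (control cells after differentiation), LIGHT-Undiff (overexpressing cells before it) and NC-Undiff (control cells before it). Differentiated cells had 48 h in a beige cocktail of dexamethasone (2 µg/ml), insulin (5 µg/ml), IBMX (0.5 mM), rosiglitazone (1 µM), triiodothyronine (1 nM) and indomethacin, and then a medium that kept rosiglitazone, triiodothyronine and insulin, so those agents were present throughout. The sources used here do not give what drives Tnfsf14, whether either line is 1 clone, what the control line carries or the day of harvest. No label states that libraries of one group were grown as separate cultures, and a p-value here speaks only of the scatter among these libraries, which may be technical. In bulk RNA, fewer cells of a type and less RNA per cell cannot be told apart.

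Libraries held 16334079 to 19686675 expected counts, and 3 counts were worth 0.152 to 0.184 CPM (counts relative to library size) by library totals. The CPM of genes given below are also scaled by the trimmed mean of M-values. Tnfsf14 gave 38, 53 and 58 counts in LIGHT-Undiff and 0, 1 and 0 in NC-Undiff. After differentiation it gave 0, 148 and 122 counts in the libraries labelled LIGHT-Diff 1, 2 and 3 and 113, 0 and 0 in those labelled NC-Diff 1, 2 and 3, so the libraries labelled LIGHT-Diff 1 and NC-Diff 1 go against their labels. Samples stayed in their labelled groups. Values are those of all 12 libraries unless said otherwise, and values for the 10 that remain without that pair are given for part of the results. The 8 adipocyte markers (Adipoq, Fabp4, Pparg, Cebpa, Plin1, Lpl, Cidec and Lipe) summed to 16100 to 21900 CPM in LIGHT-Diff and 16300 to 22000 CPM in NC-Diff, against 202 to 242 CPM in LIGHT-Undiff and 215 to 249 CPM in NC-Undiff. Of the 4 beige markers, Ucp1 (at most 0.106 CPM), Cidea (at most 0.324 CPM) and Dio2 (at most 0.112 CPM) were at or near 0 in all libraries. The other, Ppargc1a, a transcriptional coactivator of mitochondrial genes, had 7.79 to 11.8 CPM in LIGHT-Diff and 5.83 to 11.4 CPM in NC-Diff, against 0.785 to 1.36 CPM in LIGHT-Undiff and 1.62 to 2.33 CPM in NC-Undiff, and rose in both lines (log2 fold change 3.09, SE 0.31, adjusted p = 3.13e-06 in LIGHT and 2.09, SE 0.30, adjusted p = 4.86e-05 in NC cells). The epithelial keratins Krt8 and Krt18, with Cdh1, summed to 2.25 to 8.72 CPM in LIGHT-Diff and 1.49 to 10.5 CPM in NC-Diff, against 0.0537 to 0.177 CPM in LIGHT-Undiff and 0 to 0.337 CPM in NC-Undiff, while Epcam was listed in no library. Leukocyte markers summed to at most 3.87 CPM in a library, with Emr1 and Cd3e listed in none. The 6 muscle, bone and cartilage markers summed to 58.9 to 66.2 CPM in LIGHT-Diff, 59.2 to 62.7 CPM in NC-Diff, 84.6 to 89.3 CPM in LIGHT-Undiff and 62.8 to 68.5 CPM in NC-Undiff, with Myod1 and Acan listed in none. The part of these markers in the results was not tested.

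Levels between genes were compared per length, as the FPKM the authors deposited. Fstl1, a secreted follistatin-like glycoprotein, was the highest member in LIGHT-Diff (165.1 ± 26.9 FPKM, SD, n = 3), in NC-Diff (159.8 ± 41.0) and in LIGHT-Undiff (220.3 ± 7.78). In NC-Undiff Grem1, the BMP antagonist gremlin 1, was highest at 220.5 ± 3.07 FPKM, with Fstl1 beside it at 207.6 ± 14.0, a gap within the spread of Fstl1. Grem1 was second in LIGHT-Undiff at 134.2 ± 6.85 FPKM, but stood at 11.0 ± 1.37 FPKM in LIGHT-Diff and 9.43 ± 1.72 FPKM in NC-Diff. Among the ligands Tgfb1 was highest in every group, at 32.1 ± 1.28 FPKM in LIGHT-Diff, 35.1 ± 2.57 in NC-Diff, 21.9 ± 0.497 in LIGHT-Undiff and 23.2 ± 1.52 in NC-Undiff. Tgfb3 averaged 7.30 FPKM in LIGHT-Diff, 5.94 in NC-Diff, 10.9 in LIGHT-Undiff and 12.6 in NC-Undiff, and Tgfb2 stayed between 1.34 and 2.56 FPKM over all 12 libraries.

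**Figure D1:**
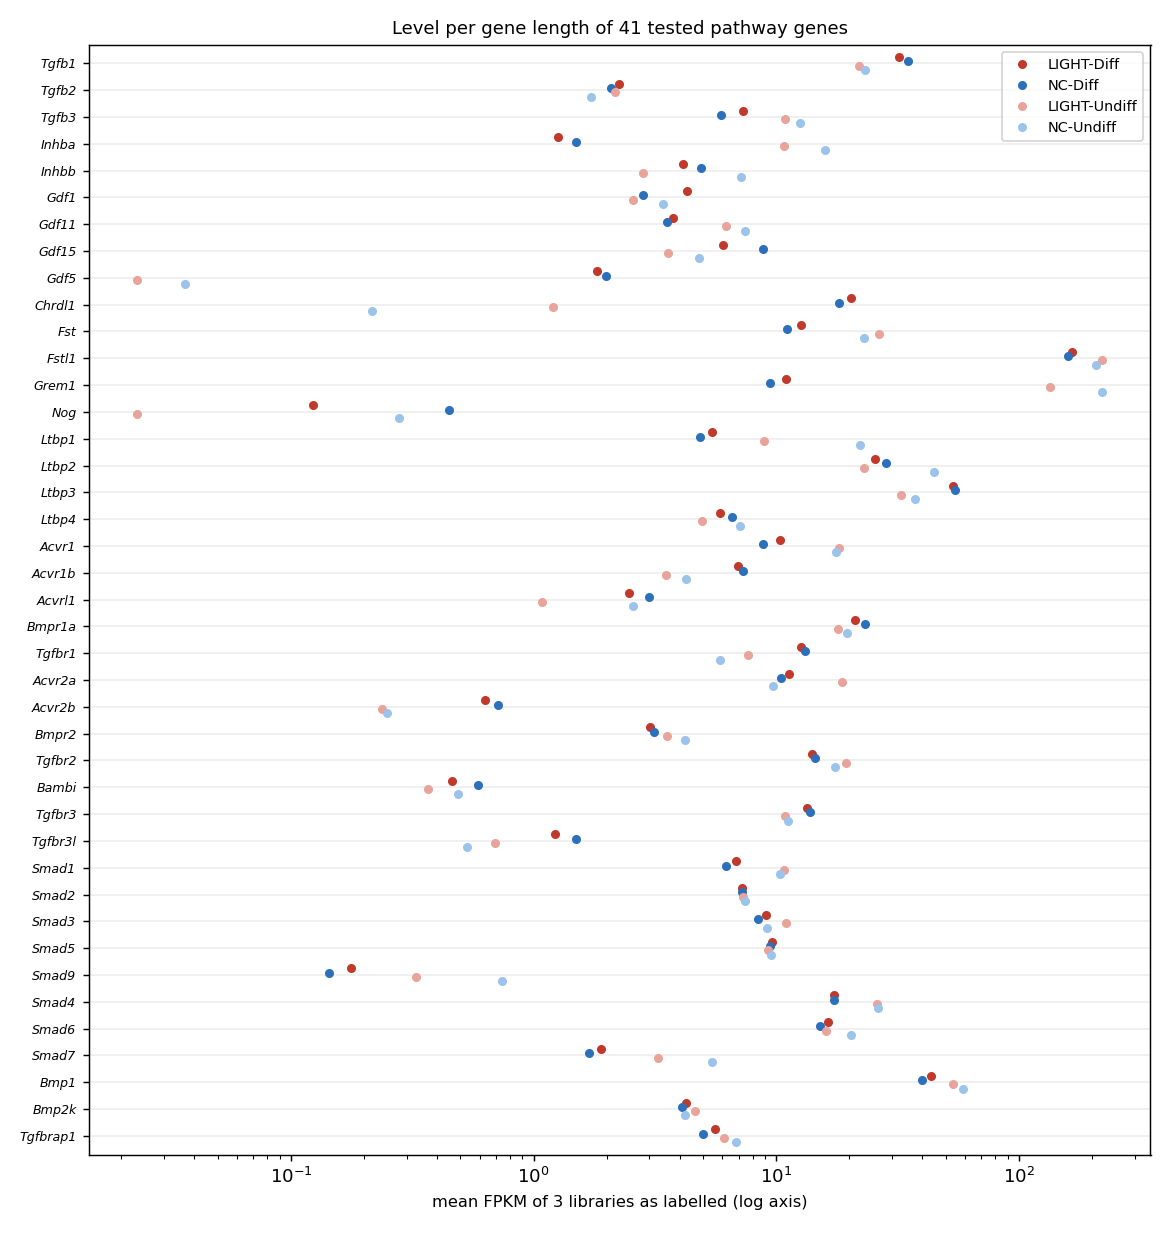
Mean FPKM (log axis) of the tested members, ordered by role, with a point for the mean of the 3 libraries labelled LIGHT-Diff, NC-Diff, LIGHT-Undiff and NC-Undiff. Grem1 stands near 10 FPKM in both differentiated groups and above 130 FPKM in both undifferentiated groups, while Fstl1 stays above 150 FPKM in each group.

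Of the 57 members, 42 had enough counts to be tested and 15 did not. The untested ones were Bmp3, Bmp4, Bmp5, Bmp6, Bmp8a, Bmp8b, Bmp10, Bmp15, Bmpr1b, Fstl3, Gdf2, Gdf7, Gdf9, Inhbc and Inhbe, with at most 16 counts in a library. Of the 15 BMP and GDF ligands, Gdf1, Gdf5, Gdf11 and Gdf15 alone could be tested. Bmp5 was the most counted of the untested genes, with 2, 10 and 10 counts in LIGHT-Diff, 16, 2 and 5 in NC-Diff, 3, 7 and 2 in LIGHT-Undiff and 1, 2 and 2 in NC-Undiff. Bmp4, a ligand known to commit precursors to the fat lineage, had 1 count in each of 2 LIGHT-Undiff libraries and 0 in the other 10 libraries, which was too few to compare. Of the tested genes, Gdf5 met the count minimum in differentiated libraries alone, and Nog in 2 NC-Diff libraries and 1 NC-Undiff library, with at most 1.21 CPM.

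Differentiation of LIGHT cells moved 25 of the 42 tested members in edgeR's quasi-likelihood test (Benjamini-Hochberg adjusted p under 0.05 over 12993 genes), 12 upward and 13 downward. That is 59.5% of those tested, against 58.6% of all genes (29.5% higher and 29.1% lower). In NC cells 11 rose and 15 fell, 61.9% of those tested, against 63.9% of all genes (32.2% higher and 31.7% lower). Both shares lie near the background, so the count is no result about the pathway, and the results below are about its members. The median log2 fold change of the tested members was 0.11 in LIGHT and -0.08 in NC cells, beside 0.00 for all genes in each. Without the libraries labelled LIGHT-Diff 1 and NC-Diff 1, 12 rose and 13 fell in LIGHT cells, against a background of 64.1% (32.3% higher, 31.9% lower), and 12 rose and 18 fell in NC cells, against 70.7% (35.8% higher, 34.9% lower). Of the 25 members called in LIGHT cells 24 were called with 10 libraries too, in the same direction, and all 26 called in NC cells were.

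Across both lines 10 members rose in each and 9 fell in each. Those that rose were Gdf5, Gdf15, Tgfb1, Chrdl1, Ltbp3, Tgfbr1, Acvr1b, Bmpr1a, Acvr2b and Tgfbr3. Gdf5 met the count minimum in differentiated libraries alone, so its place in this count and in the rises counted above is no separate evidence. Those that fell were Inhba, Tgfb3, Gdf11, Grem1, Ltbp1, Acvr1, Smad1, Smad4 and Smad7. No member rose in one line and fell in the other with 12 libraries. With 10 libraries 10 members rose in each line, with Acvrl1 in place of Gdf15. In that fit 11 fell in each, with Fst and Fstl1 added to those named.

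**Figure D2:**
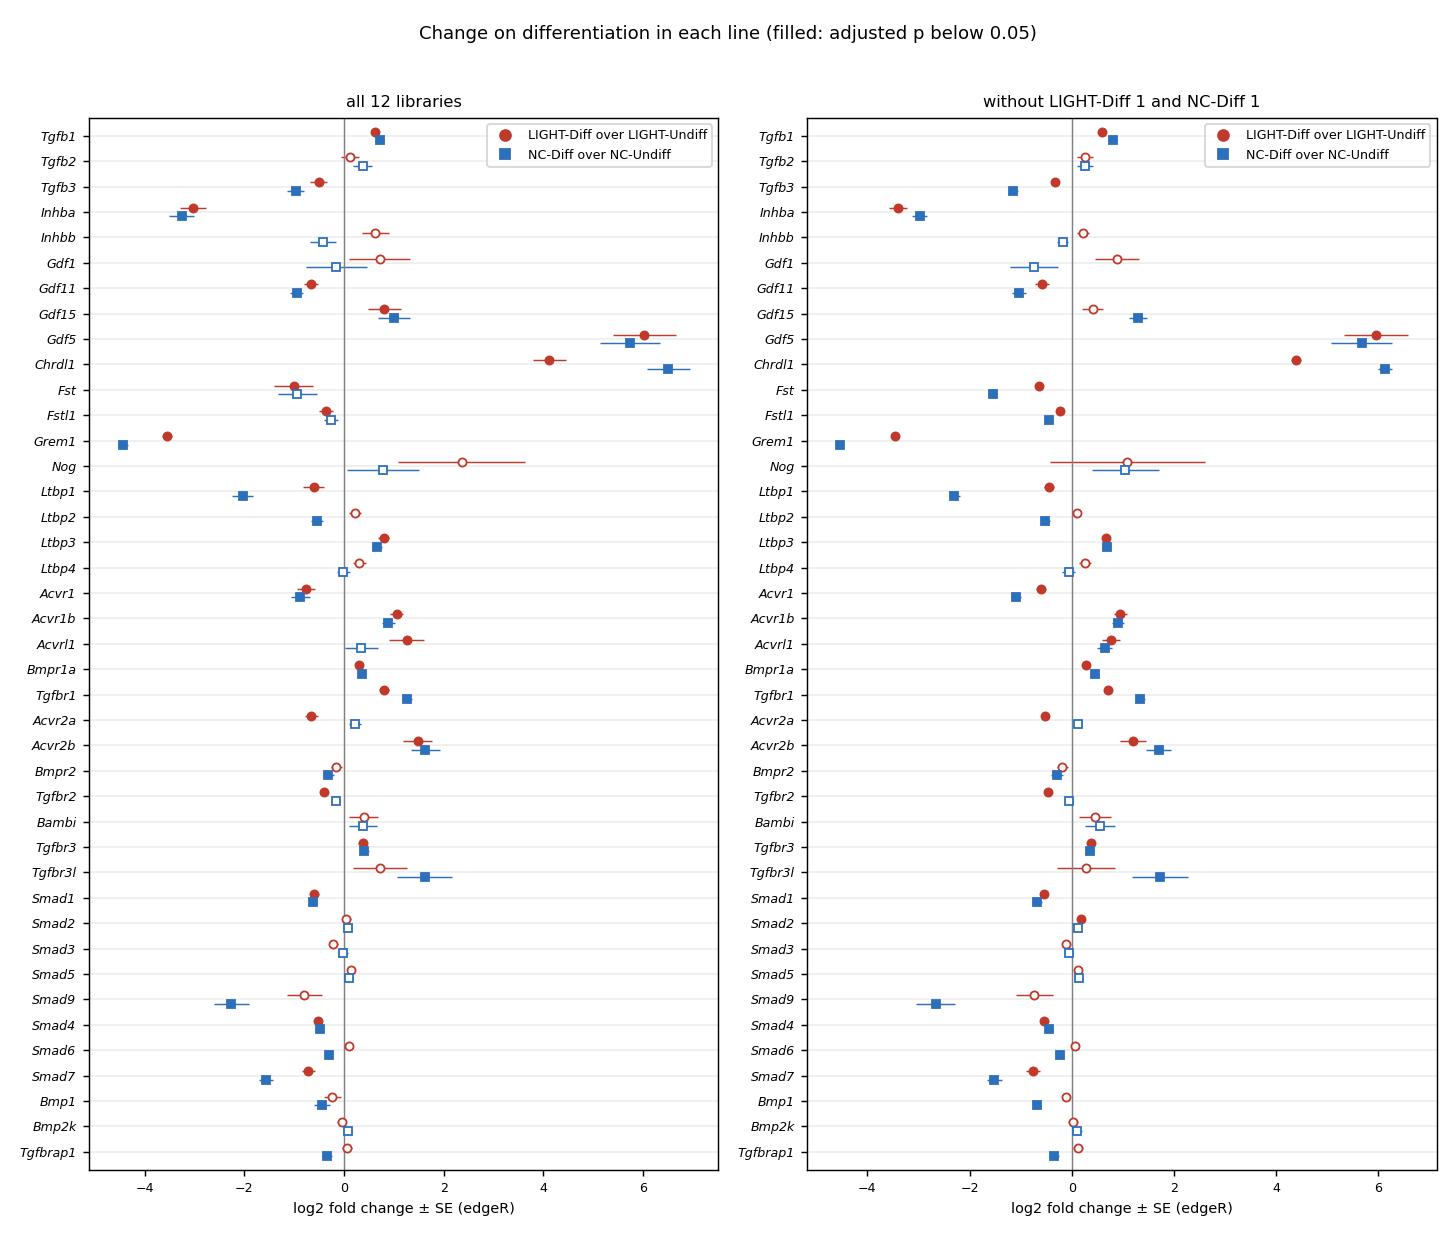
Log2 fold change on differentiation of the tested members in LIGHT cells (LIGHT-Diff over LIGHT-Undiff) and NC cells (NC-Diff over NC-Undiff), with SE bars, with all 12 libraries on the left and without the libraries labelled LIGHT-Diff 1 and NC-Diff 1 on the right; filled symbols have an adjusted p under 0.05 in edgeR. Chrdl1 and Gdf5 lie above 4 and Grem1 and Inhba below -2.9 in both lines and both panels. Gdf5 met the count minimum in differentiated libraries alone.

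Among the ligands and subunits, Inhba was far lower after differentiation. It encodes the βA subunit, whose homodimer is activin A. Inhba (gene 16323) had 2.62, 1.53 and 1.16 CPM in LIGHT-Diff and 13.9, 13.8 and 15.7 CPM in LIGHT-Undiff. The NC line gave 1.30, 2.60 and 2.59 CPM in NC-Diff and 20.7, 20.4 and 21.4 CPM in NC-Undiff. The groups of either line did not overlap, and every differentiated library was below 3 CPM. The log2 fold change stood at -3.03 (SE 0.26, adjusted p = 7e-07) in LIGHT cells, 8.19-fold lower, and -3.26 (SE 0.25, adjusted p = 2.14e-07) in NC cells, 9.55-fold lower. With 10 libraries the values were -3.40 (SE 0.17) and -2.98 (SE 0.15). The other subunit measured, Inhbb (gene 16324), which makes activin B, did not pass in either line. It had 26.3, 12.5 and 13.7 CPM in LIGHT-Diff, 22.8 and 26.3 CPM in NC-Diff 2 and 3, and 13.7 CPM in the library labelled NC-Diff 1. Before differentiation it had 10.3, 10.7 and 12.9 CPM in LIGHT-Undiff and 28.6, 28.3 and 28.0 CPM in NC-Undiff. On the log2 scale the change was 0.63 (SE 0.27, adjusted p = 0.0662) in LIGHT and -0.43 (SE 0.26, adjusted p = 0.17) in NC cells.

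The promoter windows of these subunits are shown because one gene fell and the other did not pass. Both are from RefSeq, build GRCm38.p6, 250 bases before to 50 after the gene's start; the expression files use another build. Capitals mark TATAAA, which 13.6% of 32851 windows hold on either strand. The Inhba window (chr13:16011601-16011900, plus strand) holds 1 match and is 47.7% G or C. The Inhbb window (chr1:119422199-119422498, minus strand) is 64.3% G or C and holds none of the motifs searched. The median over all windows was 52.7%. A match describes the letters only.
Inhba: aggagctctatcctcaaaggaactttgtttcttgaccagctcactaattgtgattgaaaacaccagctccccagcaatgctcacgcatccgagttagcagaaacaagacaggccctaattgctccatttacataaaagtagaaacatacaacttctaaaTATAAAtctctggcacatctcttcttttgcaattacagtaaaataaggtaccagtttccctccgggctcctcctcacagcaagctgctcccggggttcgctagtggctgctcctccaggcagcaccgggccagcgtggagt
Inhbb: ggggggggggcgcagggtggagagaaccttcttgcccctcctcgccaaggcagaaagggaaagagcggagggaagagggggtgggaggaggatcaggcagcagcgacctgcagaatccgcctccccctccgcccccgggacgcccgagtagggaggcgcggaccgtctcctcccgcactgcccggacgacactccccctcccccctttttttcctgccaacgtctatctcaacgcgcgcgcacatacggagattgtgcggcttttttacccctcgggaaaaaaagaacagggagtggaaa

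The TGF-β ligands went different ways on differentiation. Tgfb1 (gene 21803) had 68.2, 63.1 and 68.6 CPM in LIGHT-Diff and 44.6, 44.2 and 42.0 CPM in LIGHT-Undiff. For the controls, it stood at 67.2, 79.7 and 76.8 CPM in NC-Diff and 42.8, 44.0 and 49.2 CPM in NC-Undiff, so each differentiated library lay above each undifferentiated one. Its log2 fold change was 0.61 (SE 0.08, adjusted p = 2.71e-05) in LIGHT and 0.72 (SE 0.08, adjusted p = 5.33e-06) in NC cells. Tgfb3 (gene 21809) fell in both lines, by 0.51 on the log2 scale in LIGHT (SE 0.17, adjusted p = 0.0196) and by 0.97 in NC cells (SE 0.17, adjusted p = 0.000269). The LIGHT call of Tgfb3 was lost without the library labelled LIGHT-Diff 1 or without LIGHT-Undiff 3, at an adjusted p of up to 0.0621. It held with 10 libraries, at -0.33 in LIGHT and -1.15 in NC cells. Tgfb2 did not pass in either line (0.12 and 0.38).

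Gdf5 (gene 14563), a BMP-family ligand best known from joint formation, was close to 0 before differentiation. It had 4.42, 3.91 and 3.72 CPM in LIGHT-Diff, against 0, 0.157 and 0 CPM in LIGHT-Undiff. The NC cells showed 4.97, 5.09 and 3.29 CPM in NC-Diff, against 0.115, 0.112 and 0 CPM in NC-Undiff. All 6 differentiated libraries stood above 3 CPM and all 6 undifferentiated libraries under 0.2 CPM. In LIGHT cells 206 counts after differentiation stood against 3 before it, a ratio of 73.0 with a 95% counting interval of 24.6 to 357. In NC cells 225 counts stood against 4, a ratio of 57.5 with an interval of 22.2 to 213; such intervals cover counting error only. Since Gdf5 entered the test through the differentiated libraries alone, no p is given for its rise.

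The remaining ligands moved less. Gdf11, a ligand close to myostatin that signals through activin receptors, fell by 0.66 on the log2 scale in LIGHT (SE 0.13, adjusted p = 0.000991) and by 0.95 in NC cells (SE 0.13, adjusted p = 4.48e-05). Gdf15, a distant family member made under cell stress, had 8.60, 4.43 and 4.14 CPM in LIGHT-Diff and 5.04, 9.87 and 10.8 CPM in NC-Diff, against 2.95, 2.83 and 3.97 CPM in LIGHT-Undiff and 4.27, 3.88 and 4.66 CPM in NC-Undiff. It rose in both lines with 12 libraries, by 0.81 (SE 0.33, adjusted p = 0.0494) in LIGHT and 1.01 (SE 0.32, adjusted p = 0.0145) in NC cells. With 10 libraries the LIGHT call was lost (0.40, adjusted p = 0.0792) while the NC call was held (1.30, adjusted p = 1.56e-06). Among fits that leave out 1 of the 12 libraries, the LIGHT call was lost in 7 (adjusted p up to 0.27) and the NC call in 2, without NC-Undiff 2 or NC-Diff 3 (adjusted p up to 0.062). Gdf1 did not pass and is uncertain: NC-Diff 2 gave it 6 counts, and that library alone listed the overlapping gene Cers1.

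Grem1 and Chrdl1, both antagonists of BMP ligands, moved in opposite directions and further than most members. Grem1 (gene 23892) had 14.9, 18.1 and 16.9 CPM in LIGHT-Diff and 192, 188 and 204 CPM in LIGHT-Undiff. In control cells it had 17.3, 13.4 and 13.1 CPM in NC-Diff and 312, 317 and 312 CPM in NC-Undiff. The 6 differentiated libraries lay between 13 and 19 CPM, and the undifferentiated ones were separated by line. The log2 fold change stood at -3.55 (SE 0.10, adjusted p = 5.79e-11), 11.7-fold lower, in LIGHT cells and -4.43 (SE 0.11, adjusted p = 1.42e-11), 21.6-fold lower, in NC cells. Chrdl1 (gene 83453) had 49.1, 100.4 and 94.7 CPM in LIGHT-Diff, against 4.31, 4.19 and 5.53 CPM in LIGHT-Undiff. The NC line gave 108.8, 59.2 and 52.4 CPM in NC-Diff, against 0.692, 0.899 and 0.816 CPM in NC-Undiff. The groups did not overlap in either line, and the libraries labelled LIGHT-Diff 1 and NC-Diff 1 each lay beside the other line's differentiated libraries. On the log2 scale the change was 4.12 (SE 0.34, adjusted p = 4.54e-07) in LIGHT, 17.4-fold higher, and 6.50 (SE 0.43, adjusted p = 5.06e-08) in NC cells, 90.6-fold higher. With 10 libraries Grem1 was at -3.47 and -4.54, and Chrdl1 at 4.38 and 6.13.

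The Grem1 promoter window (RefSeq, GRCm38.p6, chr2:113758599-113758898, minus strand) is shown because no other tested member fell as far. It is 70.7% G or C. Capitals mark 2 matches of CAGAC, the short SMAD-binding box, and 1 of GGCGCC, a GC-rich box bound by BMP SMADs. On either strand CAGAC is in 49.6% of all windows and in 26 of the 53 windows of members (49.1%), and GGCGCC is in 11.9% of all windows and in 13 of those 53 (24.5%). Chrdl1, Gdf5 and Fst have no window in that table.
Grem1: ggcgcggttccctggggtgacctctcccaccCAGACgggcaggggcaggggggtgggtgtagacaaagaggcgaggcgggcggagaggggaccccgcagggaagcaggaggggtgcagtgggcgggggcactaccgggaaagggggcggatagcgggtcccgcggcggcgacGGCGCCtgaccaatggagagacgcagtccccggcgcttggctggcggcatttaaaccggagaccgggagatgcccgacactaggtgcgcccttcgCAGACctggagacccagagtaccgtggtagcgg

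Fst depended on the doubted libraries. This gene, the activin-binding protein follistatin (gene 14313), had 13.8, 41.1 and 41.9 CPM in LIGHT-Diff and 58.3, 65.8 and 70.8 CPM in LIGHT-Undiff. For the controls, it stood at 49.5, 18.6 and 18.4 CPM in NC-Diff and 58.9, 53.5 and 52.6 CPM in NC-Undiff. Every differentiated library was below every undifferentiated one. With 12 libraries the log2 fold change was -1.01 (SE 0.39, adjusted p = 0.0411) in LIGHT and -0.94 (SE 0.39, adjusted p = 0.0534, not called) in NC cells. The LIGHT call was lost in 7 of the 12 fits that leave out 1 library (adjusted p up to 0.101), in each fit without an undifferentiated library and in the fit without the library labelled LIGHT-Diff 1. With 10 it was -0.64 (SE 0.08, adjusted p = 1.01e-06) in LIGHT and -1.55 (SE 0.09, adjusted p = 8.46e-12) in NC cells. Fstl1 fell in LIGHT cells (-0.35, SE 0.14, adjusted p = 0.0471), a call lost in 8 of those 12 fits (adjusted p up to 0.159), and did not pass in NC cells (-0.27, adjusted p = 0.117). It fell in both with 10 libraries, by 0.24 and 0.45.

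**Figure D3:**
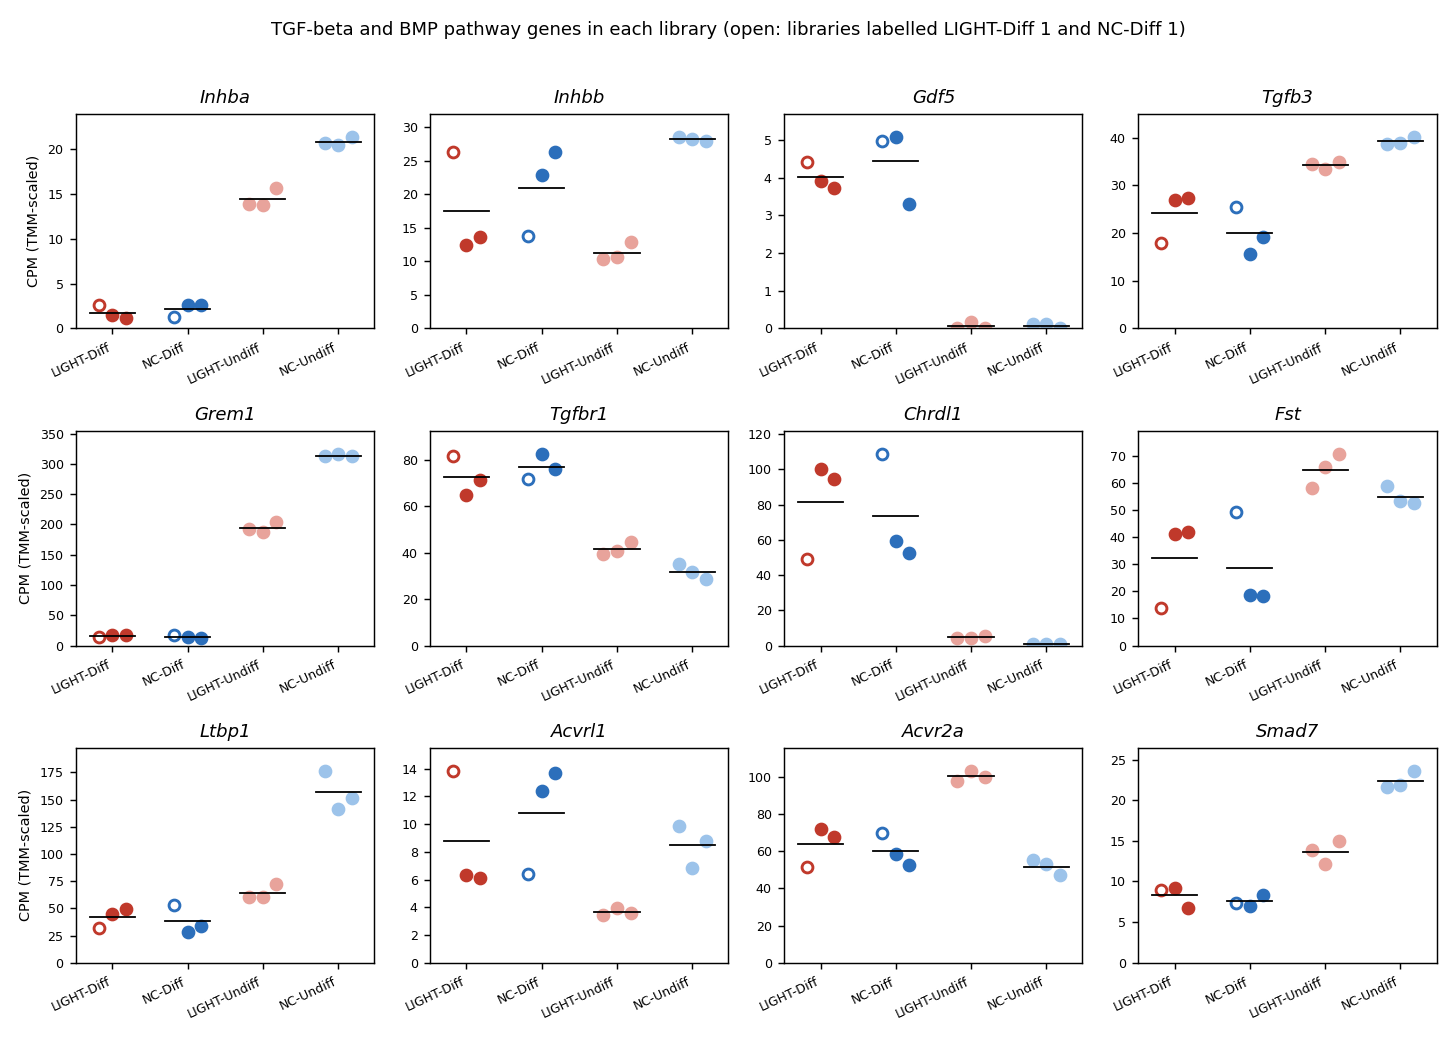
CPM of 12 members in each library, by group (LIGHT-Diff, NC-Diff, LIGHT-Undiff, NC-Undiff), with a bar at the mean; open symbols are the libraries labelled LIGHT-Diff 1 and NC-Diff 1. In the panels of Fst and Chrdl1 each open symbol lies with the filled symbols of the other line, while Grem1 and Inhba part the stages in every library.

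Of the latent binding proteins, which hold TGF-β in an inactive complex in the matrix, Ltbp1 fell and Ltbp3 rose in both lines. Ltbp1 (gene 268977) had 32.3, 44.5 and 49.9 CPM in LIGHT-Diff and 60.3, 60.5 and 72.5 CPM in LIGHT-Undiff. In control cells it had 52.9, 28.1 and 34.3 CPM in NC-Diff and 176, 142 and 152 CPM in NC-Undiff, with no overlap between stages in either line. Its log2 fold change was -0.61 (SE 0.21, adjusted p = 0.0222) in LIGHT and -2.03 (SE 0.21, adjusted p = 2.92e-06) in NC cells. The LIGHT call was lost without the library labelled LIGHT-Diff 1 or without LIGHT-Undiff 3 (adjusted p up to 0.0835), and held with 10 libraries (-0.45, adjusted p = 0.00093). Ltbp3 rose by 0.80 in LIGHT (SE 0.11, adjusted p = 4.14e-05) and by 0.66 in NC cells (SE 0.11, adjusted p = 0.000159). Ltbp2, which binds fibrillin and not latent TGF-β, fell in NC cells (-0.54, SE 0.12, adjusted p = 0.00148) and had 0.22 (adjusted p = 0.123) in LIGHT cells, while Ltbp4 passed in neither.

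Of 5 type I receptors tested, 4 rose and 1 fell in LIGHT cells, beside 29.5% higher and 29.1% lower of all genes, and 3 rose and 1 fell in NC cells, beside 32.2% and 31.7%. Tgfbr1, the type I receptor of TGF-β (gene 21812), had 81.7, 64.8 and 71.3 CPM in LIGHT-Diff and 39.6, 40.6 and 44.8 CPM in LIGHT-Undiff. The NC line gave 71.8, 82.7 and 76.3 CPM in NC-Diff and 35.0, 31.6 and 28.8 CPM in NC-Undiff. The stages did not overlap, with log2 fold changes of 0.80 (SE 0.10, adjusted p = 1.84e-05) in LIGHT and 1.27 (SE 0.10, adjusted p = 2.48e-07) in NC cells. Acvr1b, the activin type I receptor, rose by 1.06 in LIGHT (SE 0.13, adjusted p = 1.59e-05) and 0.89 in NC cells (SE 0.13, adjusted p = 5.42e-05). Bmpr1a, a BMP type I receptor, rose by 0.30 and 0.36. Acvr1, another type I receptor of BMPs, was the one that fell, by 0.76 in LIGHT (SE 0.18, adjusted p = 0.00289) and 0.87 in NC cells (SE 0.18, adjusted p = 0.001). Acvrl1, best known from endothelium, had 13.8, 6.33 and 6.09 CPM in LIGHT-Diff and 3.42, 3.93 and 3.60 CPM in LIGHT-Undiff. It had 6.40, 12.4 and 13.7 CPM in NC-Diff and 9.87, 6.85 and 8.80 CPM in NC-Undiff. Acvrl1 rose in LIGHT cells (1.25, SE 0.34, adjusted p = 0.00718), and it rose in NC cells only in the fit of 10 libraries (0.64, SE 0.15, adjusted p = 0.000905, against 0.35, adjusted p = 0.362, with 12). The endothelial markers Pecam1, Cdh5, Kdr and Tek summed to at most 0.748 CPM in LIGHT-Diff, 1.09 CPM in NC-Diff, 1.06 CPM in LIGHT-Undiff and 1.10 CPM in NC-Undiff.

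Among type II receptors Acvr2b rose in both lines, and Acvr2a and Tgfbr2 fell in LIGHT cells. Acvr2b (gene 11481), which binds activins, had 9.22, 5.96 and 5.18 CPM in LIGHT-Diff and 2.19, 2.25 and 2.84 CPM in LIGHT-Undiff. For the controls, it stood at 7.27, 7.33 and 8.74 CPM in NC-Diff and 3.23, 1.46 and 2.85 CPM in NC-Undiff. Each differentiated library stood above each undifferentiated one, with log2 fold changes of 1.48 (SE 0.29, adjusted p = 0.000729) in LIGHT and 1.63 (SE 0.29, adjusted p = 0.000286) in NC cells. Its close relative Acvr2a (gene 11480) had 51.8, 71.9 and 67.6 CPM in LIGHT-Diff and 98.0, 103 and 99.7 CPM in LIGHT-Undiff. It had 69.8, 58.5 and 52.8 CPM in NC-Diff and 55.0, 52.9 and 47.2 CPM in NC-Undiff. The LIGHT-Undiff libraries thus lay above all others. Acvr2a fell by 0.65 in LIGHT cells (SE 0.12, adjusted p = 0.000541), with 0.22 in NC cells (adjusted p = 0.135). Tgfbr2 fell in LIGHT cells (-0.39, SE 0.08, adjusted p = 0.00118), and Bmpr2 fell in NC cells (-0.32, SE 0.11, adjusted p = 0.0218), a call lost in 5 of the 12 fits that leave out 1 library (adjusted p up to 0.111). Of the co-receptors, Tgfbr3 (betaglycan, which presents TGF-β) rose in both lines, by 0.38 and 0.41. Tgfbr3l, at 0.295 to 2.27 CPM over all libraries, rose in NC cells (1.62, SE 0.55, adjusted p = 0.0203), a call lost without NC-Undiff 1, NC-Undiff 2 or NC-Diff 3 (adjusted p up to 0.0877), and the pseudoreceptor Bambi passed in neither.

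No receptor SMAD, common SMAD or inhibitory SMAD rose in either line with 12 libraries. Smad4 (gene 17128), the partner common to both branches, had 58.3, 52.9 and 58.4 CPM in LIGHT-Diff and 80.1, 79.1 and 84.8 CPM in LIGHT-Undiff. The NC cells showed 55.6, 57.0 and 60.3 CPM in NC-Diff and 77.8, 82.7 and 82.3 CPM in NC-Undiff. The lines overlapped at each stage, and the stages did not. The log2 fold change stood at -0.53 (SE 0.06, adjusted p = 1.54e-05) in LIGHT and -0.49 (SE 0.06, adjusted p = 2.35e-05) in NC cells. Smad1, of the BMP branch, fell by 0.60 (SE 0.09, adjusted p = 8.08e-05) and 0.62 (SE 0.09, adjusted p = 4.97e-05), while Smad5 of the same branch and Smad2 and Smad3 of the TGF-β branch did not pass in either line. Smad2 rose in LIGHT cells with 10 libraries (0.18, SE 0.06, adjusted p = 0.0184), a call lost without LIGHT-Undiff 2 or LIGHT-Diff 3 (adjusted p up to 0.166). Smad9 (gene 55994), also of the BMP branch, was low throughout. It had 0.872, 1.21 and 0.731 CPM in LIGHT-Diff and 1.77, 1.73 and 1.45 CPM in LIGHT-Undiff. In control cells it had 1.18, 0.727 and 0.432 CPM in NC-Diff and 3.12, 3.54 and 4.54 CPM in NC-Undiff. Its libraries did not overlap between stages, and it fell by 2.26 in NC cells (SE 0.35, adjusted p = 9.55e-05), with -0.80 in LIGHT cells (SE 0.35, adjusted p = 0.0666).

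Smad7 and Smad6 are inhibitors that the pathway itself induces. Smad7 (gene 17131) had 8.97, 9.24 and 6.76 CPM in LIGHT-Diff and 13.8, 12.2 and 15.0 CPM in LIGHT-Undiff. The NC line gave 7.40, 6.96 and 8.37 CPM in NC-Diff and 21.6, 21.9 and 23.6 CPM in NC-Undiff. Differentiated libraries of both lines lay below 10 CPM, and the undifferentiated lines stood apart. It fell by 0.71 in LIGHT (SE 0.13, adjusted p = 0.000591) and by 1.56 in NC cells (SE 0.14, adjusted p = 5.88e-07). Smad6 fell in NC cells (-0.31, SE 0.08, adjusted p = 0.00398), with 0.10 (adjusted p = 0.311) in LIGHT cells. Its promoter window (RefSeq, GRCm38.p6, chr9:64022010-64022309, minus strand) is shown because it alone among the 53 windows of members holds GTCTAGAC, the palindromic SMAD-binding element, in capitals, which 0.213% of all windows hold. It is 66.3% G or C.
Smad6: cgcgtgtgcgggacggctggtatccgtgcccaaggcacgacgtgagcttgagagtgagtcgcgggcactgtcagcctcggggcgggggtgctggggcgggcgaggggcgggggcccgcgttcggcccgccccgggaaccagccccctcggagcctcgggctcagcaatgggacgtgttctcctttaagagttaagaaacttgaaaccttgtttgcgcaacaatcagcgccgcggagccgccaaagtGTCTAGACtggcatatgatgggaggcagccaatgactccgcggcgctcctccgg

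Bmp1 fell in NC cells (-0.45, SE 0.16, adjusted p = 0.029), though with 12 libraries its groups overlapped and the call was lost without NC-Undiff 1, NC-Undiff 3, NC-Diff 2 or NC-Diff 3 (adjusted p up to 0.135). With 10 libraries it fell by 0.69 in NC cells (SE 0.07, adjusted p = 3.03e-08). Tgfbrap1 fell in NC cells (-0.34, SE 0.10, adjusted p = 0.00963), though not without NC-Diff 3 (adjusted p = 0.0589). Bmp2k passed in neither line.

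Before differentiation LIGHT cells differed from NC cells in 15 of 42 tested members, 4 higher and 11 lower. The share of 35.7% stands beside 26.5% of all genes (12.3% higher and 14.2% lower), and the median log2 fold change of the tested members was -0.19, beside -0.01 for all genes. In the fit of 10 libraries, which keeps the same 6 undifferentiated libraries but another estimate of the spread, 6 were higher and 15 lower, against 44.4% of all genes (22.3% higher and 22.1% lower). All 15 calls of the 12-library fit were among these 21. The higher members were Chrdl1 (2.53, SE 0.53, adjusted p = 0.00434), Acvr2a (0.96, SE 0.12, adjusted p = 0.000206), Tgfbr1 (0.39, SE 0.10, adjusted p = 0.0138) and Smad3 (0.28, SE 0.09, adjusted p = 0.0404). Chrdl1 was 4.67 ± 0.741 CPM in LIGHT-Undiff and 0.802 ± 0.104 CPM in NC-Undiff (SD, n = 3 each). Acvr2a was 100.3 ± 2.67 CPM and 51.7 ± 4.06 CPM in the same groups.

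By role, the members lower in LIGHT-Undiff were 3 of 4 latent binding proteins, 3 of 6 ligand inhibitors and 1 of 2 activin and inhibin subunits. The others were 2 of 2 inhibitory SMADs, 1 of 5 receptor SMADs and 1 of 5 type I receptors. Of all genes 14.2% were lower. No TGF-β ligand and no BMP or GDF ligand was called. Inhbb was 11.3 ± 1.38 CPM in LIGHT-Undiff and 28.3 ± 0.324 CPM in NC-Undiff (SD, n = 3 each), which is -1.32 on the log2 scale (SE 0.27, adjusted p = 0.00397). Ltbp1 was 64.5 ± 7.02 CPM against 157 ± 17.9 CPM (-1.28, SE 0.20, adjusted p = 0.000803). In both genes every LIGHT-Undiff library lay below every NC-Undiff library. Ltbp2 (-0.95), Ltbp4 (-0.51), Grem1 (-0.69, SE 0.09, adjusted p = 0.000233), Smad7 (-0.71), Smad6 (-0.33), Smad9 (-1.18) and Acvrl1 (-1.22, SE 0.34, adjusted p = 0.0206) were lower too, and so was Nog, where 2 counts over LIGHT-Undiff stood against 25 over NC-Undiff, a ratio of 0.0765 with a 95% counting interval of 0.00878 to 0.307. Nog met the count minimum in NC libraries alone, yet it is counted among the lower members. When single libraries were left out in turn, the calls of Acvrl1 (5 of 12 fits, adjusted p up to 0.0733), Ltbp4 (3, up to 0.0735), Nog (7, up to 0.132), Smad3 (6, up to 0.142), Smad9 (4, up to 0.076) and Tgfbr1 (2, up to 0.0601) were lost at least once. Inhba did not pass with 12 libraries (-0.53, SE 0.21, adjusted p = 0.0889), with 14.5 ± 1.10 CPM in LIGHT-Undiff and 20.9 ± 0.516 CPM in NC-Undiff. With 10 it was lower in LIGHT-Undiff (-0.52, SE 0.10, adjusted p = 0.00047). The 8 preadipocyte and fibroblast markers summed to 16700 to 18300 CPM in LIGHT-Undiff and 9670 to 11400 CPM in NC-Undiff, with 4 higher and 1 lower in LIGHT-Undiff, and their part in these differences was not tested.

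After differentiation the answer rested on the doubted pair. With all 12 libraries edgeR called 0 of 42 members and 0 of 12993 genes (0.0%) between LIGHT-Diff and NC-Diff, 2 members and 523 genes had an unadjusted p under 0.05, and DESeq2 called 0 members. Without the libraries labelled LIGHT-Diff 1 and NC-Diff 1, at n = 2 against 2, edgeR called 20 members, 11 higher and 9 lower, or 47.6% of those tested. The background was 31.0% of 13150 genes (14.6% higher and 16.4% lower). DESeq2 called 18 members, 10 higher and 8 lower, and with library totals in place of the scaling factors 18 were called, 13 higher and 5 lower. Of the 20 calls 12 held in each of the 10 fits that leave out 1 further library, where a group left with 1 library is assumed to vary like the others. Those lost at least once included Acvr2a, Bmpr1a, Ltbp2, Nog, Smad3, Tgfb1 and Tgfbr2 (adjusted p up to 0.282). The median log2 fold change of the tested members was -0.01, equal to that of all genes to the 2 decimals given.

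The ligand inhibitors Fst, Chrdl1, Grem1 and Fstl1 were higher and Nog lower in LIGHT-Diff in that fit. Fst was at 41.1 and 41.9 CPM in LIGHT-Diff 2 and 3 and 18.6 and 18.4 CPM in NC-Diff 2 and 3. It had 13.8 CPM in the library labelled LIGHT-Diff 1 and 49.5 CPM in the one labelled NC-Diff 1, so the groups overlap with those libraries and do not without them. The log2 fold change was 1.16 (SE 0.10, adjusted p = 5.72e-08) with 10 libraries and 0.17 (SE 0.40, adjusted p = 0.95) with 12. Chrdl1 was higher by 0.80 (SE 0.09, adjusted p = 1.15e-06), Grem1 by 0.40 (SE 0.09, adjusted p = 0.00193) and Fstl1 by 0.33 (SE 0.06, adjusted p = 0.000652). Nog had 3 counts over LIGHT-Diff 2 and 3 and 34 over NC-Diff 2 and 3, a ratio of 0.0874 with a counting interval of 0.0172 to 0.278. It met the count minimum in NC libraries alone, so its place among the called and lower members counted above is no separate evidence.

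Both activin subunits were lower in LIGHT-Diff with 10 libraries. Inhba was at 1.53 and 1.16 CPM in LIGHT-Diff 2 and 3 and 2.60 and 2.59 CPM in NC-Diff 2 and 3, or -0.94 on the log2 scale (SE 0.23, adjusted p = 0.00354). The libraries labelled LIGHT-Diff 1 and NC-Diff 1 had 2.62 and 1.30 CPM, and with them it was -0.31 (SE 0.29, adjusted p = 0.913). Inhbb was at -0.92 (SE 0.12, adjusted p = 1.42e-05), against -0.27 (adjusted p = 0.913) with 12. Gdf15 was 4.43 and 4.14 CPM in LIGHT-Diff 2 and 3 and 9.87 and 10.8 CPM in NC-Diff 2 and 3 (-1.27, SE 0.19, adjusted p = 5.7e-05). Acvrl1 was 6.33 and 6.09 CPM against 12.4 and 13.7 CPM in the same libraries (-1.08, SE 0.17, adjusted p = 9.93e-05). Tgfb3 (0.63), Ltbp1 (0.59), Acvr1 (0.59), Bmp1 (0.46), Acvr2a (0.32) and Smad3 (0.22) were higher, and Ltbp2 (-0.32), Bmpr1a (-0.26), Tgfb1 (-0.26) and Tgfbr2 (-0.21) lower. In this fit 5 of 8 adipocyte markers were lower in LIGHT-Diff and none higher. Their sums overlapped between the lines only over ranges that include the doubted pair. Of 8 preadipocyte and fibroblast markers 5 were higher and 2 lower. With the doubted pair included, these summed to 11100 to 15500 CPM in LIGHT-Diff and 10500 to 17600 CPM in NC-Diff. Krt8 and Krt18 were lower as well and Ppargc1a higher (0.76, SE 0.22, adjusted p = 0.0113), and the part of these markers in the differences was not tested.

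**Figure D4:**
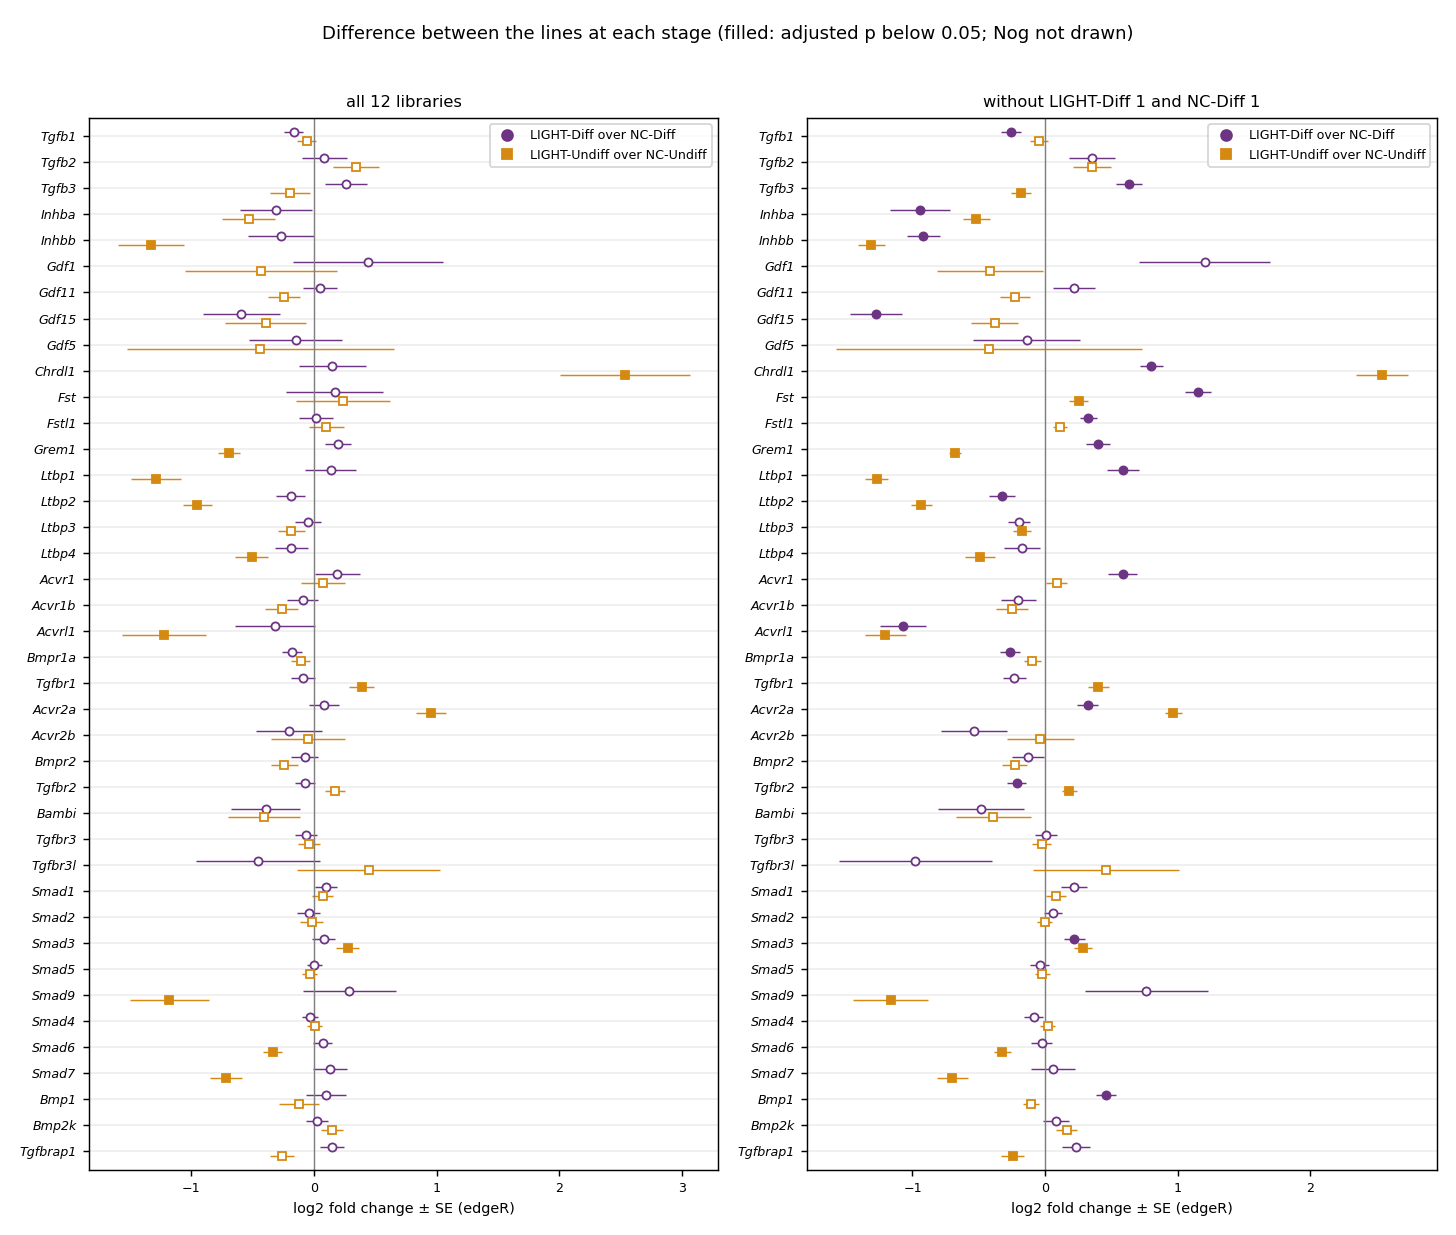
Log2 fold change of LIGHT-Diff over NC-Diff and of LIGHT-Undiff over NC-Undiff for the tested members except Nog, with SE bars, with all 12 libraries on the left and without the libraries labelled LIGHT-Diff 1 and NC-Diff 1 on the right; filled symbols have an adjusted p under 0.05. Circles (after differentiation) are all open on the left, where 0 members are called, and those called are filled on the right.

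Whether the stages changed the difference between the lines was tested as an interaction, LIGHT over NC after differentiation minus the same before it. With 12 libraries 8 members passed, 6 above 0 and 2 below, which is 19.0% of those tested beside 9.34% of all genes (5.08% higher and 4.26% lower). Ltbp1 (1.42, SE 0.29, adjusted p = 0.00994), Grem1 (0.88, SE 0.14, adjusted p = 0.00263), Smad7 (0.85, SE 0.19, adjusted p = 0.0159), Ltbp2 (0.76, SE 0.17, adjusted p = 0.0143) and Smad6 (0.41, SE 0.11, adjusted p = 0.0399) were among those above 0. Each of these genes was lower in LIGHT than in NC cells before differentiation. Chrdl1 (-2.38, SE 0.60, adjusted p = 0.0287) and Acvr2a (-0.87, SE 0.17, adjusted p = 0.00858), both higher in LIGHT-Undiff, were below 0. In that fit 0 of 12993 genes were called between LIGHT-Diff and NC-Diff. These values are thus mostly the difference before differentiation with its sign turned, and the opposite signs are no separate result. With single libraries left out in turn, the calls of Chrdl1 (6 of 12 fits, adjusted p up to 0.0799), Smad6 (11, up to 0.107) and Smad7 (1, without LIGHT-Undiff 2, 0.0501) were lost, and those of Acvr2a, Grem1, Ltbp1 and Ltbp2 held in all 12. With 10 libraries 17 members passed, 12 above 0 and 5 below, beside 31.0% of all genes (14.9% higher and 16.1% lower), and all 8 were among them in the same direction. Some of these 17 calls were lost when 1 further library was left out. Inhba did not pass in either fit (0.22, adjusted p = 0.764, with 12 libraries and -0.42, adjusted p = 0.216, with 10).

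Genes taken as targets of the pathway were read from 2 lists. Whether the pathway induces each of them in these cells was not tested, and the BMP list also holds regulators such as Zfp423. Of 19 tested genes of the TGF-β and activin list, 15 fell and 2 rose on differentiation of LIGHT cells, with a median log2 fold change of -1.59. In NC cells 15 fell and 1 rose, with a median of -1.23, beside 0.00 for all genes in either line. Of all genes 29.1% fell and 29.5% rose in LIGHT cells, and 31.7% fell and 32.2% rose in NC cells. Without the doubted pair 15 of 20 fell and 2 rose in LIGHT cells (median -1.56), and 17 fell and 2 rose in NC cells (median -1.32). The gene added in that fit met the count minimum in NC-Undiff libraries alone, so its place in the NC counts is no separate evidence. Of all genes 31.9% fell and 32.3% rose in LIGHT cells in that fit, and 34.9% fell and 35.8% rose in NC cells. Ctgf, a matricellular protein, was 0.373 CPM on average in LIGHT-Diff and 7.53 CPM in LIGHT-Undiff. That is -4.32 on the log2 scale (SE 0.21), and it changed by -6.40 (SE 0.20) in NC cells. Ctgf had 7, 6 and 6 counts in LIGHT-Diff and 5, 4 and 10 in NC-Diff. It entered the test through the undifferentiated libraries, so no p is given for its fall. Its place among the genes that fell is no separate evidence. The smooth-muscle genes Tagln (-2.23 in LIGHT and -3.30 in NC cells) and Tpm1 (-2.24 and -2.26), the collagen cross-linking enzyme Lox (-1.46 and -0.99) and the integrin subunit Itgb5 (-0.86 and -0.94) fell as well. Postn, the matrix protein periostin, rose by 1.98 (SE 0.15, adjusted p = 2.45e-07) in LIGHT and 2.62 (SE 0.16, adjusted p = 1.9e-08) in NC cells. Before differentiation 4 of the 19 were higher and 7 lower in LIGHT cells, beside 12.3% higher and 14.2% lower of all genes. Ctgf (-2.08), Timp3 (-2.38), Ccl2 (-1.19) and Tagln (-0.99) were among the lower and Lox (0.33) among the higher. After differentiation 0 were called with 12 libraries. Of 20 tested with 10 libraries 7 were higher and 8 lower in LIGHT-Diff, beside 14.6% higher and 16.4% lower of all genes. Snai2 (1.07), Cyr61 (1.00), Thbs1 (0.99) and Acta2 (0.96) were among the higher and Timp3 (-2.98) among the lower.

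Of 10 tested genes of the BMP list 4 rose and 3 fell in LIGHT cells with 12 libraries, with a median of 0.20. This lies near the background of 29.5% higher and 29.1% lower. In NC cells 3 rose and 7 fell, with a median of -0.53, beside 32.2% higher and 31.7% lower of all genes. Without the doubted pair 6 rose and 3 fell in LIGHT cells (median 0.45), beside 32.3% higher and 31.9% lower of all genes. In NC cells 3 rose and 7 fell in that fit (median -0.60), beside 35.8% higher and 34.9% lower. Id1, an inhibitor of basic helix-loop-helix factors and a direct target of BMP SMADs, had 140, 177 and 160 CPM in LIGHT-Diff and 95.9, 93.4 and 101 CPM in LIGHT-Undiff. For the controls, it stood at 156, 124 and 130 CPM in NC-Diff and 180, 192 and 191 CPM in NC-Undiff. Differentiated libraries thus lay above LIGHT-Undiff and below NC-Undiff. Id1 rose by 0.72 in LIGHT (SE 0.10, adjusted p = 3.73e-05) and fell by 0.46 in NC cells (SE 0.10, adjusted p = 0.00107), and its interaction was 1.17 (SE 0.14, adjusted p = 0.000427). Id4, named after its values were seen, did likewise, rising by 0.84 in LIGHT (adjusted p = 0.00361) and falling by 0.69 in NC cells (adjusted p = 0.0088), with an interaction of 1.53 (SE 0.29, adjusted p = 0.00646). Id3 fell in both (-0.50 and -0.61), as did Runx2, the bone regulator (-0.65 and -0.75). Zfp423, a regulator of preadipocyte commitment, rose by 1.42 (SE 0.17, adjusted p = 1.24e-05) in LIGHT and by 3.33 (SE 0.20, adjusted p = 1.76e-08) in NC cells, and was higher in LIGHT-Undiff than in NC-Undiff (2.12, SE 0.20, adjusted p = 2.32e-05). After differentiation without the doubted pair, 14.6% of all genes were higher and 16.4% lower in LIGHT-Diff. Of the 10 genes of the BMP list, 7 were higher and 1 lower in that fit, against 0 with 12 libraries. Atoh8 (1.32, SE 0.15, adjusted p = 2.07e-06), Hey1 (0.98), Id2 (0.80), Zfp423 (0.51), Id1 (0.40) and Id3 (0.34) were among the higher ones.

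**Figure D5:**
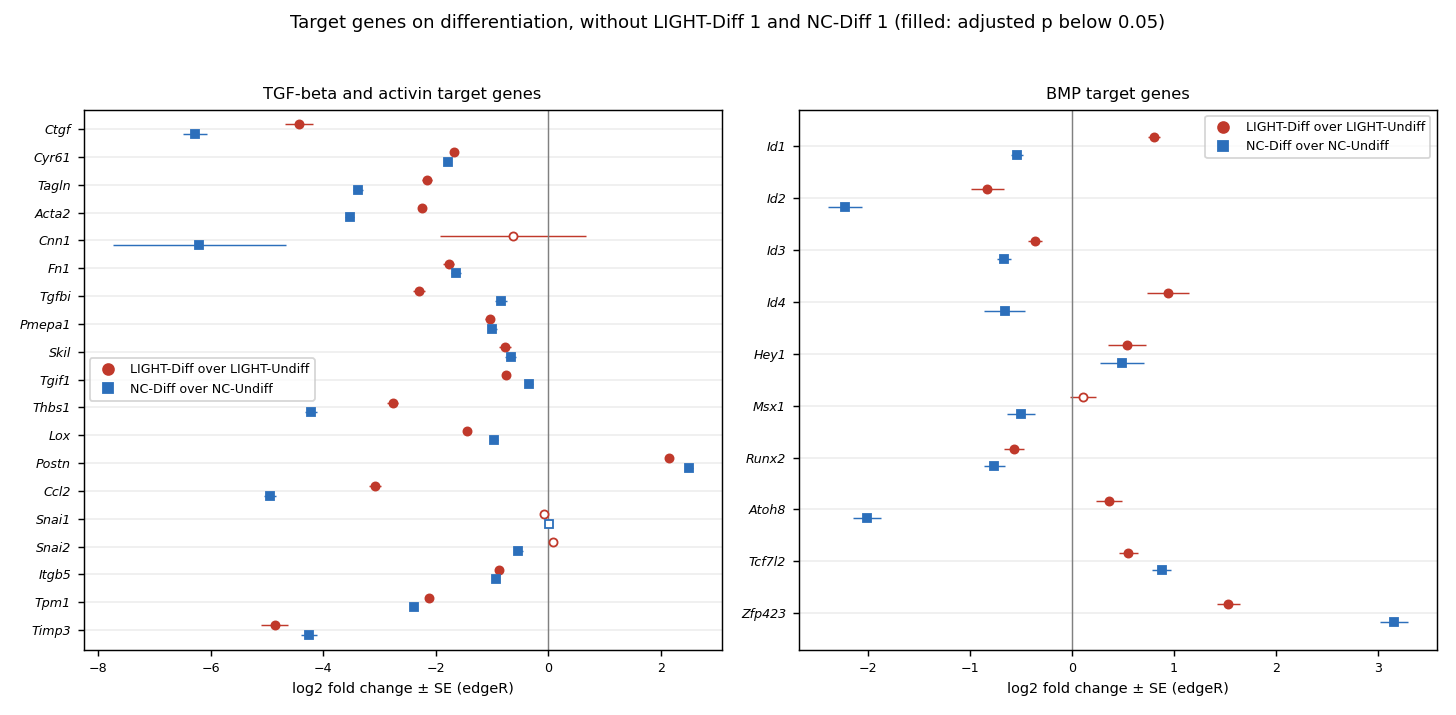
Log2 fold change on differentiation of tested genes of the TGF-β and activin list and of the BMP list, in LIGHT cells (LIGHT-Diff over LIGHT-Undiff) and NC cells (NC-Diff over NC-Undiff), without the libraries labelled LIGHT-Diff 1 and NC-Diff 1, with SE bars; filled symbols have an adjusted p under 0.05. Ctgf and Timp3 lie below -4 in both lines, and Id1 and Id4 lie above 0 in LIGHT and below 0 in NC cells. Ctgf entered the test through the undifferentiated libraries.

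A further list held 41 other regulators of the pathway, of which 28 were tested. On differentiation 10 rose and 15 fell in LIGHT cells, and 6 rose and 15 fell in NC cells, with medians of -0.35 and -0.27. Of all genes 58.6% were called in LIGHT cells (29.5% higher and 29.1% lower) and 63.9% in NC cells (32.2% higher and 31.7% lower). Fbn1, the fibrillin to which latent TGF-β complexes attach, fell by 1.75 (SE 0.13, adjusted p = 2.36e-07) in LIGHT and by 1.80 (SE 0.13, adjusted p = 1.3e-07) in NC cells. Itgav, the integrin subunit that takes part in activating latent TGF-β, fell by 1.21 and 1.43. Bmper, a secreted BMP-binding protein, rose by 1.15 (SE 0.12, adjusted p = 5.69e-06) and 0.91 (SE 0.12, adjusted p = 3e-05), and so did Hipk2 (1.74 and 1.55) and Zeb2, a SMAD-interacting repressor (0.94 and 1.23). Before differentiation 3 of the 28 were higher and 6 lower in LIGHT cells, beside 12.3% higher and 14.2% lower of all genes. Rgma, a BMP co-receptor, was higher (0.71, SE 0.14, adjusted p = 0.00279) and Smurf1, a ubiquitin ligase of SMADs, lower (-0.28, SE 0.06, adjusted p = 0.00367).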

How the data were processed

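Expected counts and FPKM per gene were deposited by the authors for each library, per the file headers; only genes above 0 are listed, so an unlisted gene was read as 0. Total RNA went into standard Illumina libraries, per the labels' protocols, and the build is mm8, per the submitters' processing notes, so no coordinates from the files are printed. Aligner, counting program and use of strand: not given in the sources used here. Of the expected counts, 83.62 to 84.48% were whole, and all were rounded to whole numbers for the tests.

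In R 4.3.3, edgeR 4.0.16 (quasi-likelihood test, TMM scaling with factors of 0.941 to 1.04, filterByExpr with a minimum count of 10, a coefficient for each group) gave p-values adjusted by Benjamini-Hochberg over 12993 genes with 12 libraries and 13150 with 10. Each SE was taken as the size of the log2 value over the root of F. The scripts were tested on simulated data. Every result was recomputed with RLE scaling, with DESeq2 1.42.0, without scaling factors (library totals), without a filter, at a minimum count of 50, with a replicate block, with each library left out in turn and with the doubted pair left out; library totals, DESeq2 and further single libraries left out together with that pair were chosen after seeing the data. Counting intervals are exact for the ratio of 2 Poisson sums.

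The members, lists and tests were chosen with earlier results of these data known. Every member may be named; values per library are given for Inhba, for the up to 4 largest rises and falls per comparison among called members (those whose higher group averaged 1 CPM or more), and for others where they show a pattern. Of each list, genes are named by the smallest p (up to 6 per comparison), with exceptions said in place. Some genes are included in the fits and counts but are not reported here. Motifs were searched on both strands of RefSeq promoter windows (GRCm38.p6), of which 42 of the 57 members had at least 1.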

Additional observations from a re-analysis of the deposited data

Results flagged for a closer look

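The difference between LIGHT and NC cells changed with differentiation, in an edgeR test of that change itself, for members that include the following. The values are log2 fold changes of LIGHT over NC after differentiation minus those before it. With all 12 libraries they were Ltbp1 (1.42), Grem1 (0.88), Smad7 (0.85), Ltbp2 (0.76), Smad6 (0.41), Acvr2a (-0.87) and Chrdl1 (-2.38). No gene was called between LIGHT-Diff and NC-Diff in that fit, so these values mostly mirror the difference before differentiation. Without the libraries labelled LIGHT-Diff 1 and NC-Diff 1 the extracellular genes were Ltbp1 (1.86), Grem1 (1.08), Fst (0.90), Tgfb3 (0.81), Ltbp2 (0.61), Bmp1 (0.57), Gdf15 (-0.89) and Chrdl1 (-1.74). The receptors and other proteins of the cell were Smad9 (1.93), Smad7 (0.76), Acvr1 (0.50), Tgfbrap1 (0.48), Smad6 (0.30), Tgfbr2 (-0.40), Tgfbr1 (-0.63) and Acvr2a (-0.65). That fit holds 2 libraries per differentiated group, and some of its calls were lost when 1 further library was left out. In that fit Grem1, Ltbp1, Smad7 and Tgfb3 fell on differentiation in both lines, by less in LIGHT cells.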

How the results depend on the processing

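With all 12 libraries, the counts of members called on differentiation (25 in LIGHT and 26 in NC cells) and before it between the lines (15) stayed within 1.5 times under every alternative run. The main fits did not pair libraries by replicate number. Deviations of same-numbered libraries from their group means correlated weakly between the stages of a line, at 0.036 to 0.097. They correlated at -0.007 to 0.044 between LIGHT-Undiff and NC-Undiff and at -0.618 to -0.292 between LIGHT-Diff and NC-Diff. Within either line 6 of 6 libraries correlated best with their own number, a hint of weak pairing from the data and not the design. A replicate block gave 22, 26 and 13 members for the 3 counts above. It gave 0 between the lines after differentiation and 5 for the interaction, against 8. Without the libraries labelled LIGHT-Diff 1 and NC-Diff 1, 20 members were called after differentiation, against 0 with all, or 18 with library totals and 18 with DESeq2, and 17 for the interaction, or 21 with library totals and 17 with DESeq2. With 1 library left out, calls after differentiation ran between 0 and 22 and calls for the interaction between 4 and 19, counting fits with and without that pair; the cause was not tested. Between LIGHT-Diff and NC-Diff, where no member was called with 12 libraries, such fits gave log2 fold changes of -0.042 to 0.88 for Chrdl1, -0.073 to 1.17 for Fst and -0.0410 to 0.73 for Ltbp1. The interaction of Inhba (0.22, not called) became -0.42 without the pair, -0.32 with library totals and -0.42 with DESeq2 besides, and -0.65 to 0.44 with 1 library left out. Library totals shifted all genes on differentiation of NC cells to a median log2 value of -0.11 with 12 and -0.15 with 10 libraries. At a floor of 3 counts (0.152 to 0.184 CPM by library totals), differences in Bmp4, Nog or Gdf5 below that level were not detectable.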
